A study of Mus musculus with 36 samples.

Results

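Lungs of Notch3-/- mice were set beside lungs of Notch4-/- mice after the same 24-hr exposure to ozone, on 3 and 3 of the 36 arrays of the study, each array holding the lung RNA of 1 mouse. All 45037 probe sets other than the array's own controls were compared. The Notch3-/- mice carried the Notch3tm1Grid allele and the Notch4-/- mice the Notch4tm1Grid allele. All were males of 7 to 13 weeks that breathed 0.3 ppm ozone continuously for 24 hr. The study also holds both lines in air and after 6 and 48 hr of ozone, and wild-type (WT) B6129SF1/J mice under the same 4 conditions, in 12 groups of 3 mice. The question is how the 2 knockout lines differ from each other at the time when ozone inflammation was under way, and which of those differences are also there in the other exposures. The 2 deletions are germline, in every cell, and were kept in separate stocks of mixed strain background, whereas the WT mice were first-generation hybrids. The effect of a deletion and that of the stock that carries it cannot be told apart here.

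Notch receptors are cell-surface proteins that are cut when a Jagged or Delta ligand on a neighbouring cell binds them, and the freed intracellular part joins RBPJ in the nucleus to switch on genes such as Hes1 and Hey1. Notch3 is best known from smooth muscle cells and pericytes of the vessel wall, and Notch4 from endothelium. Ozone is an oxidant gas that injures airway epithelium and draws macrophages and neutrophils into the lung.

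Levels are given on the log2 scale relative to the middle of the 36 mice at that probe set, because the deposited values are centred on that median. A level of 0 is thus the typical level in this study, and presence or absence of a transcript, including the defining markers of lung, cannot be read. Array medians ran from -0.0275 to 0.0279, and the SD of the difference between 2 mice of a group ran from 0.217 to 0.454. Of the 24-hr arrays, replicate 1 of the Notch4-/- mice stood apart from the other 2 in markers of airway epithelium and of other tissue. The mean level of the club and goblet cell list was 0.11, 0.96 and 1.13 in the Notch3-/- mice and 1.40, -1.13 and -1.27 in the Notch4-/- mice, with WT mice between -1.46 and -1.21. That of the pulmonary vein cardiac muscle list was -0.71, -0.04 and 0.62 in the Notch3-/- mice and 0.61, -1.32 and -1.66 in the Notch4-/- mice. In these lists 0 of 18 and 0 of 16 genes passed the test in limma, and 3 and 0 had an unadjusted p below 0.05. Their part in the results was not tested. Without that mouse 141 probe sets were called after 24 hr in place of 171. In air, replicates 1 and 2 of the Notch4-/- mice were intermediate for Notch4 itself, so the counts and list medians that use air are given with and without them.

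The targeted genes followed the labels. The Notch3 probe set with the larger difference lay at -3.73, -3.13 and -4.04 in the Notch3-/- mice, against 0.15, 0.56 and 0.37 in the Notch4-/- mice and 0.28, 0.36 and 0.38 in WT mice. The difference, Notch3-/- minus Notch4-/-, was -4.00 (SE 0.24, limma adjusted p = 1.29e-11), and the other Notch3 probe set differed by -2.80. For Notch4, the most different probe set lay at 0.14, 0.06 and -0.38 in the Notch3-/- mice, against -3.78, -3.83 and -4.31 in the Notch4-/- mice and 0.53, 0.50 and 0.58 in WT mice, a difference of 3.91 (SE 0.31, limma adjusted p = 7.22e-09). Of the other Notch4 probe sets, 1 differed by 0.66 and 1 by -0.09. Each line therefore had its own receptor low and the other receptor near its typical level in the study. At the most different Notch4 probe set the Notch3-/- mice nonetheless lay below the WT mice. In air that Notch4 probe set was at -1.97, -1.40 and -3.69 in the Notch4-/- mice.

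Among the 22 genes of the list of Notch receptors, ligands and targets, 1 was called lower (Notch3) and 0 higher by 1 probe set a gene, and the median difference was -0.06 against -0.04 over 18193 genes. The probe set that stands for Notch4 in that count is the one that did not differ. The differences were 0.10 for Notch1 and -0.24 for Notch2, the other receptors, -0.06 for Jag1, -0.02 for Jag2 and -0.04 for Dll1, which are ligands, and -0.18 for Hes1 and 0.36 for Hey1, which are targets. None of these 7 passed the test.

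After 24 hr, 171 of 45037 probe sets passed an adjusted p of 0.05 in limma, which is 0.38% of those tested. Of these, 72 were higher in Notch3-/- mice (0.16%) and 99 were lower (0.22%). In all 171 the 3 and 3 mice did not overlap. The test favours probe sets whose groups lie apart, so this adds no support to the calls. The share of all probe sets without overlap was not counted. With 1 probe set for each of 18193 genes, 39 genes were higher (0.214%) and 38 were lower (0.209%), and 126 genes had any called probe set. Which probe sets pass depends on single mice: 52 of the 171 passed in all 6 fits that left out 1 of the 24-hr mice, and the count fell to 75 without Notch3-/- replicate 3, to 78 without Notch3-/- replicate 2 and to 88 without Notch4-/- replicate 2.

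**Figure D1:**
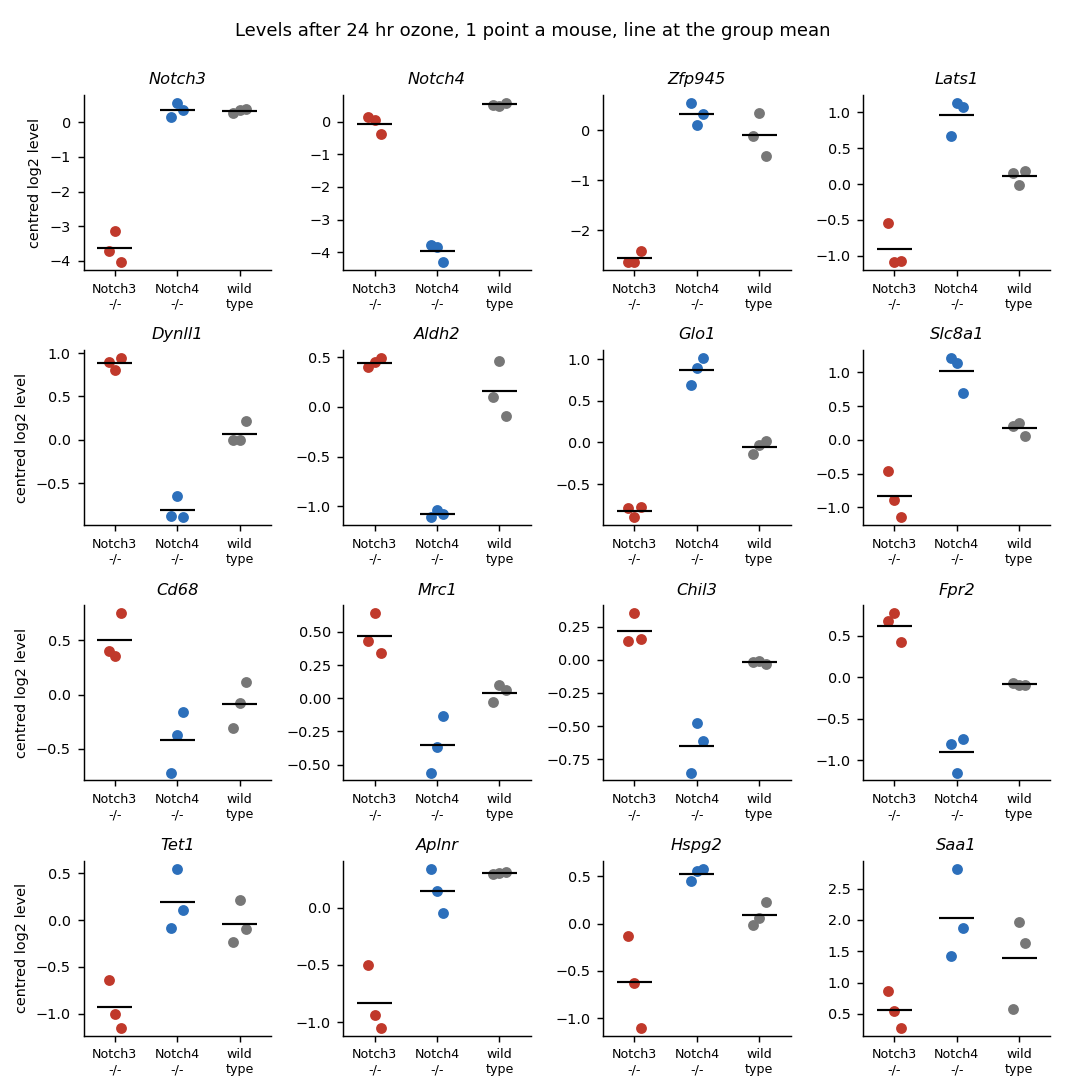
Centred log2 levels after 24 hr of ozone of 16 genes, 1 point for each mouse and a line at the mean of each group of 3, with Notch3-/- mice in red, Notch4-/- mice in blue and WT mice in grey. Each gene is shown by its probe set with the largest difference. All 16 were chosen from the called genes, so in every panel the 3 Notch3-/- mice lie apart from the 3 Notch4-/- mice. For Zfp945 they lie at -2.64, -2.64 and -2.41 against 0.54, 0.11 and 0.33.

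A share of these differences was also there in air and at the other times. The mean difference between the same lines over air, 6 hr and 48 hr rests on 18 other mice and shares no array with the 24-hr difference, although both are tested against the spread within all 12 groups. It passed the test at 414 probe sets (0.919%), at 763 without Notch4-/- air replicate 2 and at 2623 without Notch4-/- air replicates 1 and 2. Of the 72 probe sets higher after 24 hr, 67 had the same sign in those mice and 29 were also called there. Of the 99 lower, 59 had the same sign and 36 were also called, and 0 of the 171 were called in the opposite direction. Sizes differed between the directions: the median of the 72 was 0.87 after 24 hr and 0.38 elsewhere, and the median of the 99 was -0.80 after 24 hr and -0.13 elsewhere. By single exposures, 69 of the 72 and 85 of the 99 kept their sign after 6 hr, 58 and 57 after 48 hr, and 63 and 48 in air. The share of all probe sets that keep their sign was not counted, so these sign counts have no background beside them. Without Notch4-/- air replicates 1 and 2, 33 of the 72 and 35 of the 99 were also called elsewhere, with medians of 0.40 and -0.07, 1 of the 171 was called in the opposite direction, and 52 and 44 kept their sign in air. Of the 65 called in both, 38 passed in all 6 fits that left out a 24-hr mouse, and of the other 106, 14 did.

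**Figure D2:**
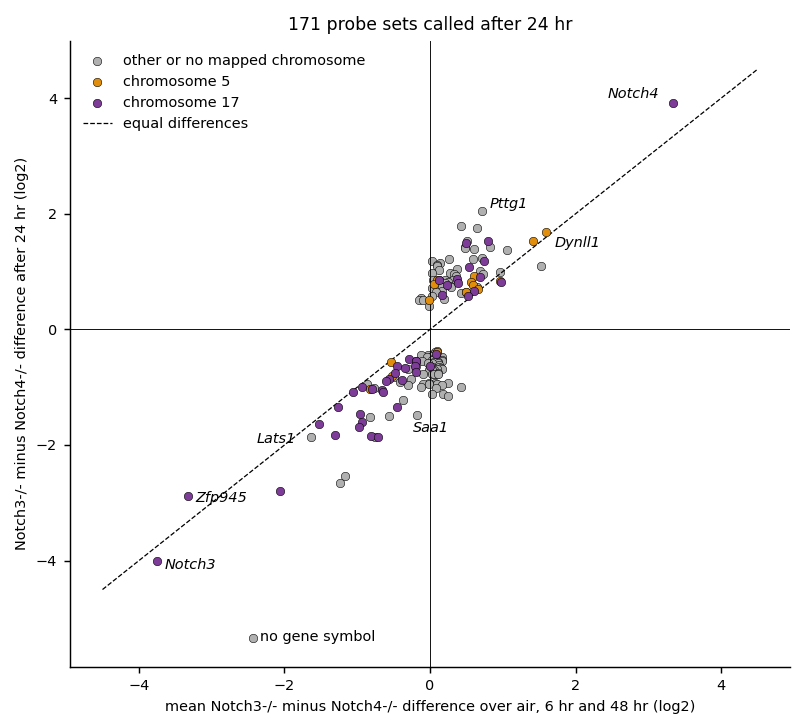
Each point is 1 of the 171 probe sets called after 24 hr, with the difference after 24 hr (Notch3-/- minus Notch4-/-, log2) up the page and the mean difference over air, 6 hr and 48 hr along it, coloured by chromosome. Points near the dashed line of equal differences, such as Zfp945 (-2.89 and -3.32) and Dynll1 (1.68 and 1.59), differed as much in the other exposures, and points above or below 0 near the vertical line, such as Saa1 (-1.48 and -0.18), did not.

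The clearest of these standing differences were in zinc finger genes, a kinase and metabolic genes. A probe set of Zfp945, a zinc finger gene, was at -2.64, -2.64 and -2.41 in the Notch3-/- mice, against 0.54, 0.11 and 0.33 in the Notch4-/- mice and -0.11, 0.34 and -0.52 in WT mice, a difference of -2.89 after 24 hr (SE 0.37, limma adjusted p = 3.47e-05) and -3.32 elsewhere. The neighbouring zinc finger genes Zfp994, Zfp944 and Zfp942 differed by -1.63, -0.99 and -1.09, the last at 1 of 3 probe sets, with another at 0.11. At Zfp945 the 3 Notch3-/- mice did not overlap the Notch4-/- or WT mice, and the Notch3-/- mice of the other exposures were low as well, between -2.67 and -1.50. Lats1, a kinase of the Hippo pathway, was at -0.55, -1.09 and -1.07 in the Notch3-/- mice, against 0.67, 1.13 and 1.07 in the Notch4-/- mice and 0.15, -0.01 and 0.18 in WT mice, so that both lines lay away from WT on opposite sides. Dynll1, a dynein light chain, was at 0.90, 0.81 and 0.94 in the Notch3-/- mice, against -0.87, -0.64 and -0.89 in the Notch4-/- mice, and Aldh2, the mitochondrial enzyme that clears acetaldehyde, was at 0.40, 0.45 and 0.49 in the Notch3-/- mice, against -1.11, -1.04 and -1.08 in the Notch4-/- mice. For Aldh2 the WT mice, at 0.10, 0.46 and -0.09, were closer to the Notch3-/- mice. These differences were read by 1 probe set of several: 1 of 4 was called for Dynll1, with the others down to 0.06, 1 of 5 for Aldh2, with the others down to 0.05, 1 of 2 for Lats1, where the other differed by -0.05, and 1 of 3 for Zfp945, where another differed by 1.22. The largest difference of all called probe sets was at one with no gene symbol, -5.34 after 24 hr and -2.43 elsewhere. It lay at -3.70, -3.66 and -3.51 in the Notch3-/- mice, against 1.65, 1.82 and 1.67 in the Notch4-/- mice and -0.30, -0.01 and -0.10 in WT mice.

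Further genes of chromosome 17 were lower in the same way, and those named next passed in all 6 fits that left out a mouse. Tbc1d24, which acts in vesicle traffic, was at -0.64, -0.43 and -0.63 in the Notch3-/- mice, against 0.52, 0.57 and 0.45 in the Notch4-/- mice and -0.10, 0.10 and -0.02 in WT mice (-1.08 after 24 hr, -0.64 elsewhere). This was 1 of 3 Tbc1d24 probe sets, with another at -0.14. Both Pkdcc probe sets, for a secreted kinase, differed, by -1.05 and -1.04. Eme2, a subunit of a DNA endonuclease, differed by -1.83 (-1.30 elsewhere) at 1 of 3 probe sets, and Dynlt1f, a dynein light chain, by -1.34 (-1.27 elsewhere). Higher on other chromosomes was H60c, a ligand of the NK cell receptor NKG2D, at 0.20, 0.18 and 0.03 in the Notch3-/- mice, against -0.87, -0.98 and -1.03 in the Notch4-/- mice. It differed by 1.10 after 24 hr and 1.52 elsewhere, and its 24-hr call was lost in each fit that left out a mouse.

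Glo1, the glyoxalase that removes methylglyoxal, was lower in Notch3-/- mice at all 4 of its probe sets, by 1.34 to 1.69 on the log2 scale. The probe set with the largest difference was at -0.79, -0.90 and -0.78 in the Notch3-/- mice, against 0.69, 0.89 and 1.01 in the Notch4-/- mice and -0.14, -0.03 and 0.02 in WT mice. The Notch4-/- mice stayed between 0.69 and 1.06 in all 4 exposures, whereas single Notch3-/- mice ran from -0.81 to -0.03 in air, from -0.08 to 0.50 after 6 hr and from -0.08 to 0.31 after 48 hr. Its difference elsewhere was -0.97. Another Glo1 probe set differed by -1.34 after 24 hr and -0.46 elsewhere, and the departure of -0.88 had a limma adjusted p of 0.0376 and passed in 3 of the 12 fits that left out a 24-hr or air mouse. Slc8a1, a sodium-calcium exchanger, differed by -1.85 after 24 hr and -0.81 elsewhere at 1 of its 4 probe sets, with the highest of the others at 0.09. Serpina1b, an alpha-1-antitrypsin gene, was lower at both of its probe sets, by 2.65 and 2.53 after 24 hr. It has near-identical neighbours that these probe sets could also read, so the gene is uncertain.

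The called genes were not spread evenly over the genome. Notch3 and Notch4 both lie on chromosome 17, with 74 measured genes between them in RefSeq order. Of 125 called genes with a place in RefSeq, 36 were on chromosome 17, which holds 834 of the 18032 measured genes. That is 28.8% of the called genes against 4.63% of those measured, and 4.32% of the genes of chromosome 17 were called against 0.693% of all. Of the 44 genes also called in the other exposures, 26 (59.1%) were on chromosome 17 and 10 (22.7%) on chromosome 5, Dynll1 and Aldh2 among them. Without Notch4-/- air replicates 1 and 2 it was 27 of 48 (56.2%) and 10 of 48 (20.8%). Of the 81 genes not called there, 10 (12.3%) were on chromosome 17 and 3 on chromosome 5. On chromosome 17 the called genes were not the nearest neighbours of the deleted genes. Leaving out Notch3 and Notch4, 1 of the 274 genes within 100 measured genes of either was called (Glo1), and 15 of the 474 within 200. The zinc finger genes were at places 93 to 100 of the 834 in map order and Notch3 at place 321. On chromosome 5 the 10 genes also called elsewhere lay between places 494 and 801 of 1122, 7 of them higher and 3 lower in Notch3-/- mice. Of these, 4 were picked after their values were seen. Hspb8, a small heat shock protein, differed by 0.92, 0.76 and 0.64 at its called probe sets. Pebp1, an inhibitor of RAF kinase, differed by 0.69, Crlf2, the receptor chain for TSLP, by 0.65, and Gak, a kinase of clathrin uncoating, by -0.80. Of the 6 fits that left out a 24-hr mouse, Pebp1 and Crlf2 passed in 6 and Gak in 2. The Hspb8 probe sets, in the order given, passed in 1, 1 and 2. Which strain's sequence each line carries was not measured.

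**Figure D3:**
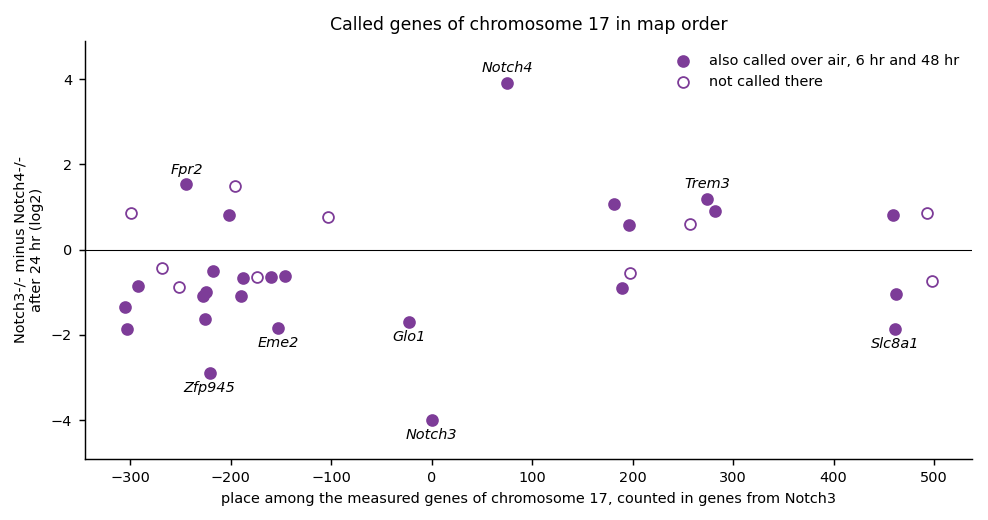
The 36 called genes of chromosome 17 in RefSeq order, with the place counted in measured genes from Notch3 along the page and the 24-hr difference (Notch3-/- minus Notch4-/-, log2) up it; filled points were also called over air, 6 hr and 48 hr and open points were not. Apart from Notch3, Notch4 and Glo1, the called genes lie over 100 genes away from both, in groups on either side.

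Genes of macrophages and other phagocytes were among those higher in Notch3-/- mice. Of 19 measured genes of the macrophage and monocyte list, 4 were called higher and 0 lower (0.214% of all genes were called higher): Cd68, a lysosomal protein of macrophages, Mrc1, the mannose receptor, Chil3, a chitinase-like protein of alveolar and alternatively activated macrophages, and Ctsk, a lysosomal protease. A positive difference was seen for 12 of the 19, and the list median was 0.29 against -0.04 over all genes. Fewer cells of a type and less RNA per cell cannot be told apart in whole lung. The mean level of the list was 0.11, 0.27 and 0.13 in the Notch3-/- mice, against -0.17, -0.06 and -0.09 in the Notch4-/- mice and -0.09, 0.06 and -0.06 in WT mice.

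Cd68 was at 0.40, 0.36 and 0.75 in the Notch3-/- mice, against -0.72, -0.37 and -0.16 in the Notch4-/- mice and -0.31, -0.08 and 0.12 in WT mice (difference 0.92, SE 0.21, limma adjusted p = 0.046). Mrc1 was at 0.43, 0.64 and 0.34 in the Notch3-/- mice, against -0.56, -0.37 and -0.13 in the Notch4-/- mice (0.82, SE 0.16, limma adjusted p = 0.00976). Chil3 was at 0.14, 0.35 and 0.16 in the Notch3-/- mice, against -0.85, -0.48 and -0.61 in the Notch4-/- mice (0.86, SE 0.17, limma adjusted p = 0.00976). The WT mice lay between the lines for Mrc1, at -0.03, 0.10 and 0.06, and for Chil3, at -0.02, -0.01 and -0.03, and overlapped the Notch4-/- mice for Cd68. The calls were close to the threshold. Of the 6 fits that left out a 24-hr mouse, Chil3 passed in 4, Mrc1 in 3, Cd68 in 1 and Ctsk in 0, and without Notch3-/- replicate 2 the adjusted p was 0.0794 for Chil3, 0.0881 for Mrc1 and 0.0918 for Cd68. In the other exposures the differences were 0.31 for Chil3, 0.24 for Mrc1 and 0.36 for Cd68, and their 24-hr differences did not pass a test against those. In the whole list an unadjusted p below 0.05 in limma was found for 7 of the 19 genes, all higher, and for 13.1% of all probe sets. A negative difference was seen for 7 of the 19. Some genes were near 0, among them Marco (-0.03), a scavenger receptor of alveolar macrophages, and Csf1r (-0.08), the receptor for the growth factor of macrophages.

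The starts of the 3 macrophage genes with the largest differences are printed as a view of the sequence upstream of genes that moved the same way. Each window runs from 250 bases before to 50 after the RefSeq start in GRCm38.p6, 5′ to 3′ on the strand of the gene, and capitals mark GAGGAA or its reverse complement TTCCTC, a core letter run bound by the macrophage factor PU.1, which was chosen after the values were seen. Cd68 is on the minus strand of chr11:69666121-69666420, Mrc1 on the plus strand of chr2:14229164-14229463 and Chil3 on the minus strand of chr3:106167515-106167814.
Cd68: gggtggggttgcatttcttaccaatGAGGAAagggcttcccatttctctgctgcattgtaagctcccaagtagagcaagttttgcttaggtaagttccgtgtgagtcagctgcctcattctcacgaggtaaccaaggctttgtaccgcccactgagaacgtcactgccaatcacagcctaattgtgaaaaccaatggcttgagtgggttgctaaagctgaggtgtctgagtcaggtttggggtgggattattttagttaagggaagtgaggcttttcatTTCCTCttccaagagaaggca
Mrc1: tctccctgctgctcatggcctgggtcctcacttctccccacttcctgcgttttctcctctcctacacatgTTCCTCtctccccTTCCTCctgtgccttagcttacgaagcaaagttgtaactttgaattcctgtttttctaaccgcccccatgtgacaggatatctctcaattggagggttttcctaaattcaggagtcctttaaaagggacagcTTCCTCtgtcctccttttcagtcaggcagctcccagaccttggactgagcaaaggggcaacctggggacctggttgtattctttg
Chil3: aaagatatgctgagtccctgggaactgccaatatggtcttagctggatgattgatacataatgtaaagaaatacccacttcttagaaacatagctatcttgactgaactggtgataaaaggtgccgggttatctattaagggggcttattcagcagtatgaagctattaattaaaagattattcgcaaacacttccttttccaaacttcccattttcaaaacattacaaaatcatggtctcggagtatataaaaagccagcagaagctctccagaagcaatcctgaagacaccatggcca
The letters occur at 2 places in the Cd68 window, at 3 in the Mrc1 window and at 0 in the Chil3 window, and 28.3% of all 32851 RefSeq windows hold at least 1. These are letter matches and not measured binding.

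Further phagocyte genes were called outside that list, and not all were higher. Stab1, a scavenger receptor of sinusoidal endothelium and macrophages, was lower, at -0.71, and passed in all 6 fits that left out a mouse. Those named next were higher. Fpr2, a receptor through which neutrophils and monocytes follow formylated peptides, was at 0.68, 0.77 and 0.42 in the Notch3-/- mice, against -0.81, -1.15 and -0.75 in the Notch4-/- mice and -0.07, -0.09 and -0.09 in WT mice. Its difference was 1.53 (SE 0.20, limma adjusted p = 5.65e-05), it passed in all 6 fits that left out a mouse, and it differed by 0.79 in the other exposures, where it was also called. Fpr2 is on chromosome 17, as is Trem3, a receptor of the TREM family, which differed by 1.19 (0.74 elsewhere). Fcgr4, an activating Fc receptor, differed by 1.05, Siglecf, a lectin of eosinophils and alveolar macrophages, by 0.98, and Ear3, of the eosinophil-associated ribonucleases, by 1.09. Fcgr4 passed in all 6 of those fits, Ear3 in 1 and Siglecf in 0. Ctss, a lysosomal protease that cuts invariant chain, differed by 0.67, and Atp6v0d2, a subunit of the proton pump, by 0.85. Both were picked after their values were seen, and Ctss passed in 4 of those 6 fits and Atp6v0d2 in 1. Of the other genes with large positive differences, Gal, the neuropeptide galanin, differed by 1.39 (0.60 elsewhere) and Rab6b, a trafficking GTPase, by 1.75. Of the 4 Rab6b probe sets 2 were called, and the differences ran from 0.30 to 1.98. Slc35a5, a nucleotide sugar transporter, was at 0.35, 0.33 and 0.39 in the Notch3-/- mice, against -0.83, -0.84 and -0.68 in the Notch4-/- mice and -0.16, -0.20 and -0.65 in WT mice, with a difference of 0.13 elsewhere. Of its 5 probe sets 2 were called, and the lowest difference was 0.22. Prss22, an airway serine protease, was at 1.75, 1.28 and 1.77 in the Notch3-/- mice, against 0.53, 0.07 and -0.30 in the Notch4-/- mice and 0.74, 0.88 and 1.15 in WT mice. Its call held in 2 of the 6 fits that left out a 24-hr mouse. Single low Notch4-/- mice stood behind other large values. The difference of 1.41 for Herc6 came with -1.55 in Notch4-/- replicate 2 beside -0.09 and -0.02, and that of 1.22 for Efhd2 with -1.85 in replicate 3 beside -0.34 and -0.30. Herc6 was called at 1 of 4 probe sets, with another at 0.06, and Efhd2 at 1 of 2, with the other at 0.40. The difference of 2.05 for Pttg1, securin, came with -3.16 in Notch4-/- replicate 3 beside -0.83 and -0.54. Without that mouse the Pttg1 difference was 1.23 (limma adjusted p = 0.184). Its call held in 2 of the 6 fits that left out a mouse.

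Neutrophil genes had a positive median with a wider spread. Of 16 measured genes, 1 was called higher (Fpr2) and 0 lower in limma, where 0.214% of all genes were called higher, and the list median was 0.68 against -0.04 over all genes. An unadjusted p below 0.05 was found for 8 of the 16, all higher, and for 13.1% of all probe sets. The list mean was 0.65, 0.52 and 0.58 in the Notch3-/- mice, against -0.04, -0.01 and 0.18 in the Notch4-/- mice and -0.61, -0.62 and -0.41 in WT mice. S100a8 and S100a9, which make calprotectin, differed by 1.74 and 1.82 with adjusted p of 0.182 and 0.172 in limma, and the granule genes Ngp and Camp by -0.65 and -0.66 with adjusted p of 0.535 and 0.526. No call was made for any of these 4.

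The genes lower in Notch3-/- mice had mixed roles. Hspg2, the basement membrane proteoglycan perlecan, was at -0.13, -0.63 and -1.10 in the Notch3-/- mice, against 0.45, 0.55 and 0.58 in the Notch4-/- mice and -0.02, 0.06 and 0.23 in WT mice (difference -1.15, SE 0.23, limma adjusted p = 0.0151), at 1 of 2 probe sets, with the other at -0.26. Mrc2, a receptor that takes up collagen, was at -0.30, -0.69 and -0.61 in the Notch3-/- mice, against 0.22, 0.60 and 0.61 in the Notch4-/- mice (-1.01, SE 0.19, limma adjusted p = 0.0066), at 1 of 2 probe sets, with the other at -0.64. For Mrc2 the WT mice, at 0.09, 0.28 and 0.33, lay above the Notch3-/- mice and overlapped the Notch4-/- mice. Aplnr, the apelin receptor of endothelium, was at -0.50, -0.94 and -1.05 in the Notch3-/- mice, against 0.34, 0.14 and -0.05 in the Notch4-/- mice and 0.29, 0.30 and 0.31 in WT mice (-0.97, SE 0.16, limma adjusted p = 0.00199), so that here the Notch4-/- mice were close to WT. Both Aplnr probe sets were called. Tet1, an enzyme that oxidises methylated cytosine, was at -0.64, -1.0 and -1.15 in the Notch3-/- mice, against -0.08, 0.55 and 0.11 in the Notch4-/- mice (-1.12, SE 0.19, limma adjusted p = 0.0024), at 1 of its 4 probe sets. Fndc1, a fibronectin domain protein, differed by -1.86 at 1 of 2 probe sets, with the other at -0.28, Myrf, a membrane-bound transcription factor, by -1.12, and Aak1, a kinase of clathrin adaptors, by -0.99 at 1 of 7 probe sets. Without Notch3-/- replicate 3, the lowest of its group, the adjusted p in limma was 0.193 for Hspg2, 0.254 for Myrf and 0.232 for Aak1. Tet1, Aplnr and Fndc1 passed in all 6 fits that left out a mouse, whereas Mrc2 passed in 3 of them.

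Others were picked after their values were seen: Htra1, a secreted protease, differed by -0.65, Stab1, a scavenger receptor of sinusoidal endothelium and macrophages, by -0.71, Adamts5, which cuts aggrecan, by -0.93, Lama5, a laminin chain, by -0.48, and Smo and Fzd2, receptors of the Hedgehog and Wnt pathways, by -0.68 and -0.92. Stab1 and this Htra1 probe set passed in all 6 fits, Adamts5 and Lama5 in 2, and Smo and Fzd2 in 1. The lists of connective tissue and vessel markers held few calls, as did all genes (0.209% called lower). In the fibroblast and matrix list 0 of 22 genes were called in limma (7 at an unadjusted p below 0.05, as were 13.1% of all probe sets), and 16 were negative with a median of -0.22; Col1a2 and Col3a1, chains of fibrillar collagen, differed by -1.21 and -1.12 with adjusted p of 0.102 and 0.142 in limma. In the endothelial list 1 of 20 was called lower (Aplnr), with 15 negative and a median of -0.18. In the smooth muscle and pericyte list 1 of 19 was called lower (Notch3 itself), with a median of -0.17. In the mesothelial list 0 of 9 were called in limma (4 at an unadjusted p below 0.05), with a median of -0.59 after 24 hr and 0.72 in air (1.04 without Notch4-/- air replicates 1 and 2). Its mean level was 0.04, -0.06 and -0.42 in the Notch3-/- mice and 0.43, 0.26 and 0.32 in the Notch4-/- mice. The part of these shifts of cell markers in the calls above was not tested.

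Saa1, an acute-phase protein, was at 0.86, 0.54 and 0.28 in the Notch3-/- mice, against 1.42, 2.82 and 1.87 in the Notch4-/- mice and 0.58, 1.96 and 1.63 in WT mice, a difference of -1.48 (SE 0.28, limma adjusted p = 0.00914). All 9 mice were above the study's median for this probe set, and the Notch3-/- mice, below all Notch4-/- mice, overlapped the WT mice. Without Notch4-/- replicate 2, its highest mouse, the adjusted p was 0.115. Of the 16 acute-phase genes measured, 1 was called in limma and 3 had an unadjusted p below 0.05, all lower, and 11 were negative, with a median of -0.06. Orm2 and Orm1, which code for orosomucoids, differed by -0.67 and -0.53, and Saa2 and Saa3 by -0.05 and -0.18, none of them called.

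The lists of inflammatory and protective genes held 0 or 1 call each. With 0.214% of all genes called higher and 0.209% lower, such counts are near the background and say nothing particular about these lists, and 13.1% of all probe sets had an unadjusted p below 0.05. Of the neutrophil and monocyte chemokines and cytokines, 0 of 24 were called in limma. At an unadjusted p below 0.05 there were 7, of which 3 were higher and 4 lower in Notch3-/- mice. Il1b differed by 0.84, and Lif by -0.63 at 1 of 2 probe sets, with the other at -0.19. With only the 6 arrays compared Il1b passed (limma adjusted p = 0.048), and with array weights both passed. Cxcl1 was at 1.01, 1.71 and 1.34 in the Notch3-/- mice and 1.64, 1.88 and 0.97 in the Notch4-/- mice. Cxcl2 differed by 0.10 and Tnf by -0.01. Of the interferon-stimulated genes 0 of 26 were called (4 unadjusted), with a median of -0.02. Of 30 genes of Toll-like receptor, IL-1 receptor and NF-kB signalling, 1 was called. This was Irak3, an inhibitor of the pathway, at 0.25, 0.32 and 0.35 in the Notch3-/- mice, against -0.25, 0.01 and -0.36 in the Notch4-/- mice, a difference of 0.51 at 1 of 2 probe sets that passed in 1 of the 6 fits leaving out a mouse. Myd88, the adaptor of these receptors, differed by -0.03. Of the NRF2 antioxidant genes 0 of 22 were called (2 unadjusted), with 19 positive and a median of 0.18, and of the heat shock and chaperone genes 0 of 18 (5 unadjusted), with 16 positive and a median of 0.36. Of the mitosis genes 0 of 24 were called (4 unadjusted) and 22 were negative, with a median of -0.40 after 24 hr and -0.96 in air (-0.10 without Notch4-/- air replicates 1 and 2).

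Whether the difference between the lines after 24 hr departed from that in the other exposures was tested by itself. The 24-hr difference minus the mean difference elsewhere passed at 25 probe sets (0.0555%), 7 of them positive and 18 negative. With the median of each array set to 0 it passed at 13, 6 positive and 7 negative. The count was 3 without Notch3-/- replicate 2 or 3 of the 24-hr group, 642 without Notch4-/- replicate 2 of the air group, 2508 without Notch4-/- air replicates 1 and 2, and 6 with air left out of the other exposures, so most of these calls depend on which mice enter the fit. Of the genes called after 24 hr, Htra1 alone, at 1 of its probe sets, kept its departure in all 12 fits that left out a 24-hr or air mouse. Aak1 departed by -1.41 (SE 0.24, limma adjusted p = 0.0222), Hspg2 by -1.39, Tet1 by -1.16, Mrc2 by -1.09 and Stab1 by -0.73. Of those 12 fits Aak1 and Stab1 passed in 9, Tet1 in 5, and Hspg2 and Mrc2 in 4, and none of the 5 passed without Notch3-/- replicate 2 or 3 of the 24-hr group. With air left out of the other exposures Stab1 passed, and the adjusted p was 0.0824 for Aak1, 0.0946 for Hspg2, 0.147 for Tet1 and 0.112 for Mrc2. For Aak1 the difference was 0.55 in air, -0.03 after 6 hr, -0.99 after 24 hr and 0.74 after 48 hr. The sign after 24 hr was thus the opposite of that in air and after 48 hr at this probe set, 1 of 7 for Aak1. The differences in air and after 48 hr did not themselves pass (limma adjusted p of 0.294 and 0.144). Irak3 departed the other way, by 0.66 (4 of the 12 fits), with Notch4-/- mice at 0.29, 0.43 and 0.43 after 48 hr. Htra1 departed by -0.68 (SE 0.10, limma adjusted p = 0.0039), the lowest adjusted p of the genes that also differed after 24 hr.

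**Figure D4:**
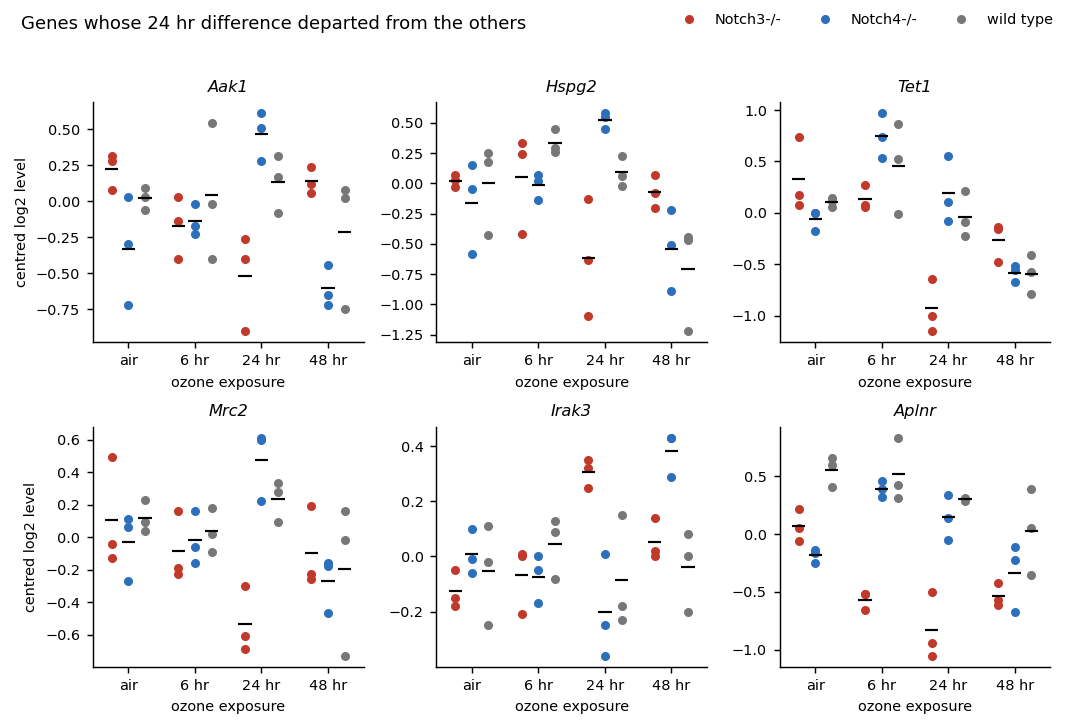
Centred log2 levels of 6 genes in air and after 6, 24 and 48 hr of ozone, 1 point for each mouse and a line at each group mean, with Notch3-/- mice in red, Notch4-/- mice in blue and WT mice in grey. For Aak1, Hspg2 and Mrc2 the group means lie farthest apart after 24 hr, where the Notch4-/- mean is above that of WT and the Notch3-/- mean below it, and for Aplnr they are apart after both 6 and 24 hr.

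The 24-hr response of each line, counted from its own air group, differed at 20 probe sets (0.0444%), 4 positive and 16 negative, with adjusted p between 0.0449 and 0.0499. Setting the median of each array to 0 left 0, one more quantile normalization gave 210 positive and 441 negative, and the fit without Notch4-/- air replicates 1 and 2 gave 3513 in all. Leaving out Notch3-/- replicate 2 or 3 of the 24-hr group left 0. The named genes were D17H6S56E-5 (1.77), C2, a complement protease (-1.39), Tet1 (-1.51), Aak1 (-1.54), Aplnr (-1.22), Gm5124 (-0.85), Snrpb2, a spliceosome protein (0.77), and Pgm3, an enzyme of amino sugar synthesis (0.67). Aplnr was at 0.05, 0.22 and -0.06 in air in the Notch3-/- mice, against -0.25, -0.14 and -0.16 in the Notch4-/- mice, so the lines differed by 0.25 in air, -0.95 after 6 hr and -0.20 after 48 hr.

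The largest called departure, -2.91 (limma adjusted p = 0.0376), was at the probe set with no gene symbol that also had the largest 24-hr difference (-5.34). It passed in 6 of the 12 fits that left out a 24-hr or air mouse. Among called probe sets with a gene symbol, the 3 largest departures were at genes that did not differ after 24 hr. Trim12a, Trim30d and Trim34a, neighbouring genes of the tripartite motif family on chromosome 7, had 24-hr differences of 0.19, -0.13 and -0.10 and departures of 2.12, 1.65 and 1.64. Trim12a was at -4.48, -5.03 and -4.67 in the Notch3-/- mice of the 6-hr group, against 0.40, 0.64 and 0.63 in the Notch4-/- mice and -0.69, -0.90 and -0.70 in WT mice. In the Notch3-/- mice of the 24-hr group it was at 0.16, 0.14 and 0.36, against 0.02, -0.02 and 0.10 in the Notch4-/- mice and -0.94, -0.87 and -1.02 in WT mice. Trim30d lay between -4.76 and -4.63 in the 3 Notch3-/- mice after 6 hr and between -0.78 and 0.38 in the other 9 Notch3-/- mice. The departure of these genes thus comes from the 3 Notch3-/- mice of the 6-hr group alone. Their other probe sets did not show it: the other Trim12a probe set was at -0.33, -0.18 and -0.19 in those mice and the other Trim34a probe set at 1.75, 0.32 and 1.58. The genes of this cluster are close copies of each other, and which of them a probe set reads is uncertain.

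**Figure D5:**
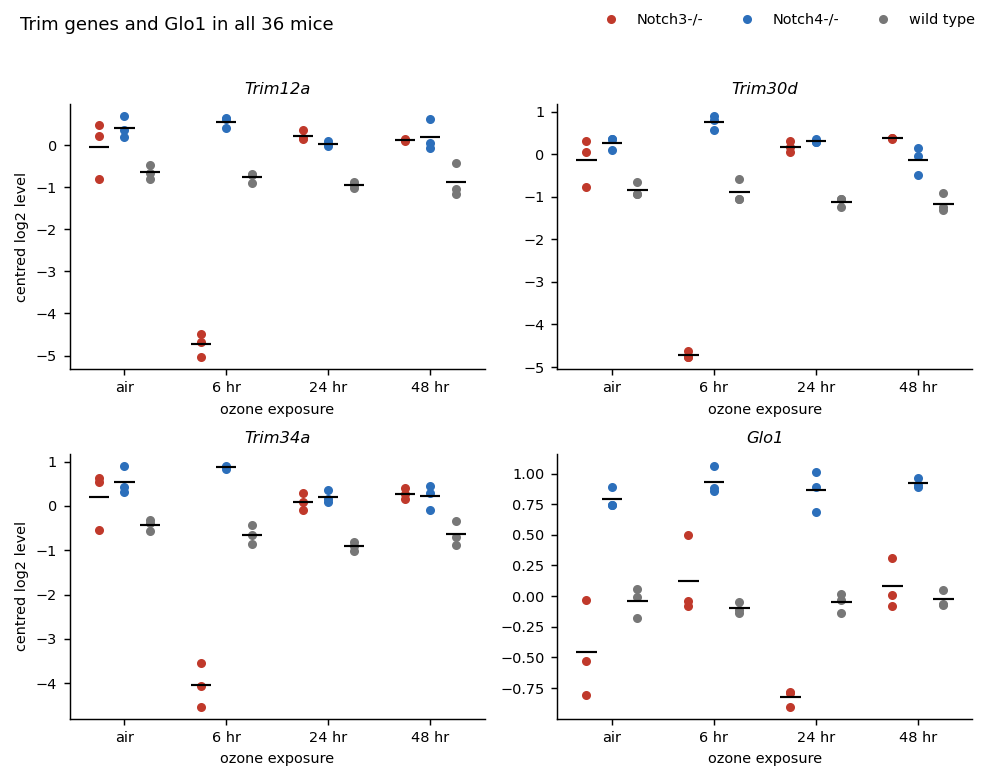
Centred log2 levels of Trim12a, Trim30d, Trim34a and Glo1 in all 36 mice by exposure, with Notch3-/- mice in red, Notch4-/- mice in blue, WT mice in grey and a line at each group mean. The 3 Notch3-/- mice of the 6-hr group lie at -4.48 to -5.03 for Trim12a, whereas after 24 hr both lines lie between -0.08 and 0.37 at the 3 Trim genes, above WT. In the Glo1 panel the Notch3-/- mice of the 24-hr group are at -0.79, -0.90 and -0.78.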

How the data were processed

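Whole-lung RNA was hybridised to Affymetrix mouse arrays, 36 in all. The authors summarised the arrays by robust multiarray average (RMA) in GeneSpring GX and deposited log2 values, in which the median of the 36 arrays was found to be 0 at every probe set (largest absolute median 5e-07). Of 45101 probe sets, 64 controls were left out. One mean per group was fitted to all 36 arrays (24 residual degrees of freedom) with limma 3.58.1 in R 4.3.3, with Benjamini-Hochberg adjustment over 45037 probe sets and a threshold of 0.05. The median SE was 0.139 for the 24-hr difference, 0.0802 for the mean difference elsewhere, 0.16 for the departure and 0.196 for the response difference; the number of arrays limits this precision, and each of the 3 mice of a group is a separate animal. Platform annotation gave 1 symbol for 34945 probe sets, more than 1 for 932 and no symbol for 9160, and 34741 were matched by gene ID to RefSeq (GRCm38.p6). In gene counts 1 probe set stands for a gene, chosen by the specificity of its suffix.

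Named genes were Notch3, Notch4, genes of the study's transcriptome text, the 20 largest differences each way whose arrays do not overlap, the 5 largest of each departure contrast, and up to 4 members of each described list; others are said to be picked after their values were seen. The members and lists were chosen with earlier results of these data known. The fits were tested on simulated data with independent noise and, at each probe set, the same spread in all arrays. Those data held no unequal arrays and no shifts shared by many probe sets, so they do not test the calls against either. Alternatives are given in the closing section. The numbers in the titles do not pair the mice: deviations of same-numbered mice of the 2 lines correlated at -0.3, -0.00692 and -0.145.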

Additional observations from a re-analysis of the deposited data

Results flagged for a closer look

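The results here were marked because the difference between the lines changed with exposure by its own test, limma with Benjamini-Hochberg adjustment over all probe sets. The 24-hr difference departed from the mean difference in the other exposures at 25 probe sets, and the 24-hr response against air differed between the lines at 20.

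By name, the departures were 2.12 for Trim12a, 1.65 for Trim30d, 1.64 for Trim34a, 0.66 for Irak3, 0.62 for Eif2s2 (a subunit of translation initiation factor 2), -1.41 for Aak1, -1.39 for Hspg2, -1.16 for Tet1, -1.09 for Mrc2 and -0.97 for Ddc (aromatic L-amino acid decarboxylase). Those of the Trim genes come from the 3 Notch3-/- mice of the 6-hr group and not from the 24-hr mice.

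The response differences were 1.77 for D17H6S56E-5, 0.77 for Snrpb2, 0.67 for Pgm3, -1.54 for Aak1, -1.51 for Tet1, -1.39 for C2, -1.22 for Aplnr and -0.85 for Gm5124. Eif2s2, Ddc, D17H6S56E-5, Snrpb2, Pgm3, C2 and Gm5124 did not pass the test after 24 hr alone, with differences of 0.35, -0.53, 0.55, 0.44, 0.29, -0.64 and -0.45.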

How the results depend on the processing

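The count of 171 after 24 hr was 56 (32 higher, 24 lower) with only the 6 arrays compared, 330 (109 higher, 221 lower) after one more quantile normalization, 1168 (365 higher, 803 lower) with array weights and 27 (6 higher, 21 lower) by the methods' ANOVA with Tukey's test, and 75 to 141 without single 24-hr mice. It was 175 without Notch4-/- air replicates 1 and 2, chosen after seeing the data. The count of 414 elsewhere was 229 with only its own arrays, 4133 with array weights, 2623 without Notch4-/- air replicates 1 and 2, 189 without air, and 277 to 763 without single 24-hr or air mice, the highest without Notch4-/- air replicate 2. The count of 25 departures was 15 with only the arrays compared, 394 after quantile normalization, 13 with arrays centred, 3678 with array weights, 2 with an intensity trend, 11 without the less variable probe sets, 160 adjusted over the 4 contrasts together, 2508 without those 2 air mice, 6 without air, and 3 to 642 without single mice. The count of 20 response differences was 441, 651, 0, 4736, 0, 143 and 3513 with only the arrays compared, quantile normalization, centring, array weights, the filter on variability, the joint adjustment and without those air mice, and 0 to 1385 without single mice. Mice of the 6- and 48-hr groups were not left out singly. The causes were not tested.

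With the replicate number as a block, which does not pair the mice, the counts were 199 after 24 hr, 531 elsewhere, 139 departures and 80 response differences. No called gene named here changed sign under any of these settings. The intensity trend is fitted on mean levels that centring removed, and under it the Notch3 probe set with the larger difference had an adjusted p of 0.926. The methods' test no longer called 34 named probe sets, Cd68, Mrc1, Chil3, Hspg2, Tet1 and Saa1 among them.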
